A study of Mus musculus with 6 samples.

Results

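The genes described here build and regulate the machinery that copies DNA in S phase. They are 48 genes chosen by name, and each matched 1 of the 56691 rows of the deposited table. By role they comprise 11 genes of origin licensing, 8 of helicase activation, 19 of the replication fork, 4 of nucleotide supply, 4 of chromatin and histone supply, and the transcription factors E2f1 and E2f2. RNA was measured in 4T1, a mouse mammary carcinoma cell line, in 3 libraries of cells given vehicle and 3 of cells given KIRA6 at 1 µmol/L, both for 4 h. KIRA6 is an inhibitor of IRE1α, which senses unfolded protein in the endoplasmic reticulum; it occupies the kinase pocket and damps the RNase. Levels are FPKM, fragment numbers scaled to exonic length and to the library's total, so they can be set side by side between genes.

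DNA replication starts from origins that are licensed in G1. The origin recognition complex, with CDC6 and CDT1, loads the MCM2-7 helicase on DNA, and CDC45, GINS, MCM10 and the kinase CDC7-DBF4 then turn it into an active fork. E2F transcription factors, held back by RB-family proteins until cyclin-CDK activity rises, drive most of these genes at the G1/S boundary, and carcinoma lines in culture express them because many of their cells are cycling.

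Every one of the 48 genes was measured well above the detection floor and passed the filter of 0.5 FPKM on the 6-library mean. Each had at least 129 estimated fragments in every library, with library medians of 1420 to 1715, from an estimated 16496600 to 21348050 fragments per library. Vehicle replicate 3 and KIRA6 replicate 1 lay apart from their groups, with the lowest fitted array weights of the 6 (0.168 and 0.337). Counts are therefore given with and without this pair. Over all tested genes, deviations from the group mean in Vehicle replicates 1 and 2 went with KIRA6 replicate 1 (correlations 0.762 and 0.713). Those in Vehicle replicate 3 went with KIRA6 replicates 2 and 3 (0.524 and 0.738). Without the pair, the libraries left in the groups deviate in opposite directions, so this replicate difference cannot be told apart from the treatment. The epithelial markers fixed for this work were all present, with summed levels of 1450 to 1577 FPKM in vehicle and 1697 to 1797 FPKM with KIRA6. Of the 16 leukocyte, fibroblast and endothelial markers only Cd68 and Pdgfra reached a mean of 0.5 FPKM, and Adgre1, Cd3e and Lum were at 0 in all 6 libraries. Summed over the list, the 7 leukocyte markers stood at 1.70 to 2.67 FPKM in vehicle and 3.16 to 3.84 FPKM with KIRA6, the 5 fibroblast markers at 0.44 to 0.75 and 1.85 to 3.74 FPKM, and the 4 endothelial markers at 0.02 to 0.06 FPKM over both groups. The part of these low levels in the results was not tested.

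With KIRA6, 5 of the 48 genes fell and 0 rose (limma on log2(FPKM + 0.5), two-sided, adjusted p below 0.05 over 11778 tested genes). The 5 were the licensing factor Cdc6, the helicase subunit Mcm3, the activation factor Mcm10, the ribonucleotide reductase subunit Rrm2 and thymidine kinase Tk1. Among all tested genes 7.98% were called lower and 15.6% higher (23.6% in all), so the members' share called lower, 10.4%, was near the background, and 0 of 48 stood among the genes called higher. Without adjustment 11 members had a limma p under 0.05 in the lower direction and 3 in the higher. Among the 11778 tested genes 1511 and 2901 did so, the background also for the unadjusted counts of the roles and lists below. Limma-voom on estimated fragments also called 5 members lower and 0 higher, beside 7.98% and 16.2% of all tested genes. The median log2 fold change of the members was −0.21, against 0.16 for all tested genes, and 38 of the 48 lay below that median. The groups did not overlap for 12 members that were lower and 3 that were higher with KIRA6, where 14.1% and 27.7% of all tested genes were so placed. In RNA of whole cultures, fewer cells in S phase and less of a transcript per cell cannot be told apart.

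How many members were called depended on the scaling and on the libraries. Median-ratio scaling, which set the median of all genes to −0.008, called 11 members lower and 0 higher, beside 12.2% of all genes lower and 11.0% higher. Over all genes the calls split into 940 lower and 1843 higher in the deposited scaling and 1438 lower and 1296 higher after median-ratio scaling. Leaving out the pair that lay apart gave 25 members lower and 4 higher beside 20.2% and 35.9% of all genes. In that fit treatment cannot be told apart from the replicate difference given above. When 1 library was left out, the number called lower was 2, 2 and 10 for Vehicle replicates 1, 2 and 3 and 5, 1 and 2 for KIRA6 replicates 1, 2 and 3. The corresponding shares of all genes called lower were 4.42%, 3.45%, 11.3%, 6.52%, 3.35% and 4.38%. No fit that left out a single library called a member higher.

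**Figure D1:**
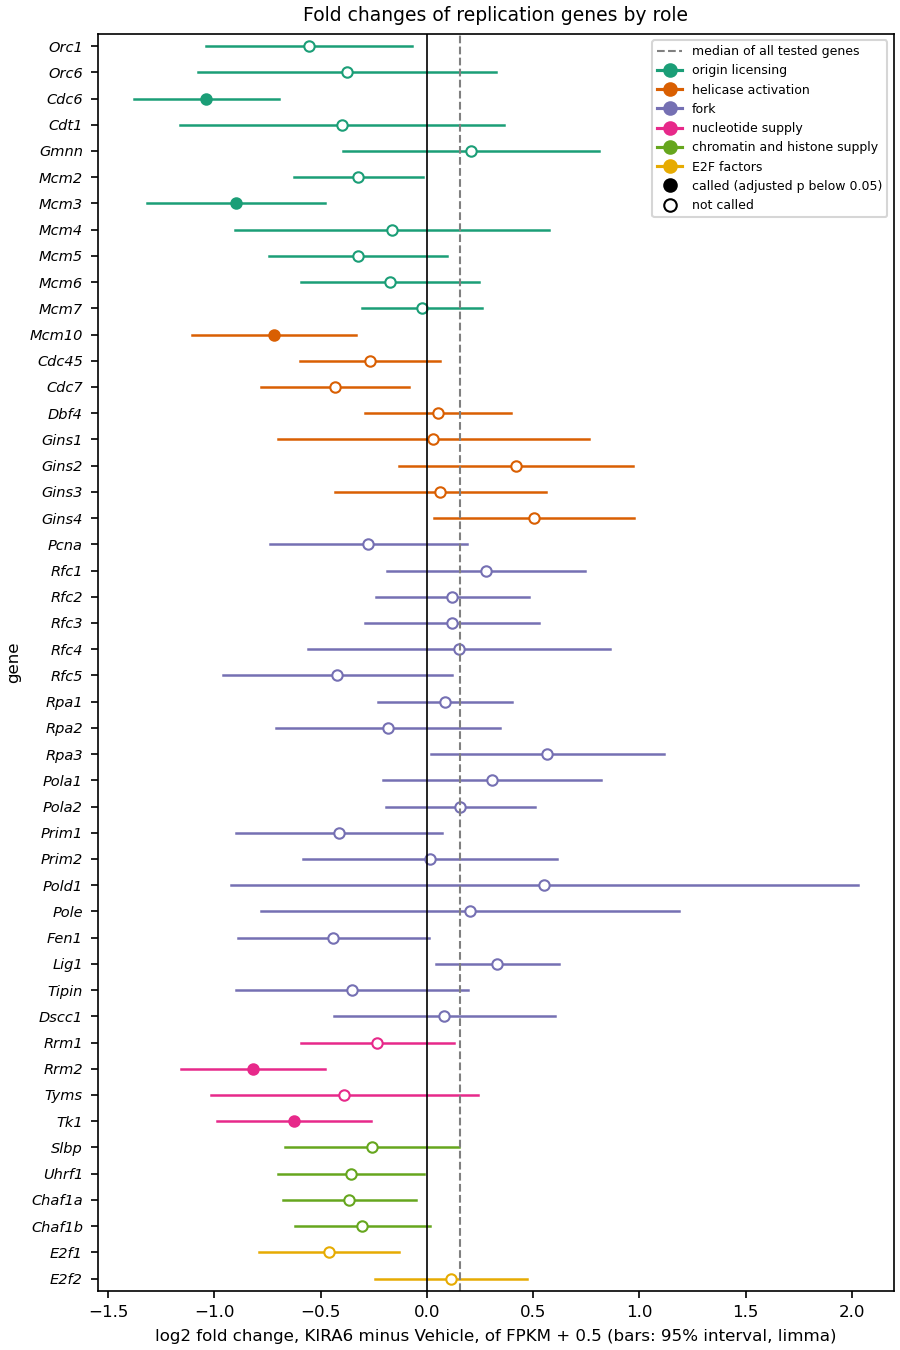
Log2 fold change of each of the 48 genes (x axis, log2 of FPKM + 0.5, KIRA6 minus Vehicle, 3 libraries each) with its 95% interval from limma, by gene and coloured by role. Filled points are the 5 called genes, all left of 0, and the dashed line marks the median of all tested genes at 0.16.

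Among the origin licensing genes 2 of 11 fell and 0 rose, beside 7.98% and 15.6% of all tested genes. The median log2 fold change of the 11 was −0.32, and 4 of them had an unadjusted p under 0.05, all lower. With the pair of libraries that lay apart left out 7 were called lower and 0 higher, beside 20.2% and 35.9% of all genes. The further genes called lower were Orc1, Orc6, Mcm2, Mcm5 and Mcm6. Cdc6 (ENSMUSG00000017499, chromosome 11, 98798627 to 98814766 on GRCm39) encodes the ATPase that joins the origin recognition complex and recruits the helicase. Its levels were 16.0, 17.2 and 20.7 FPKM in vehicle replicates 1 to 3 and 8.24, 8.19 and 8.94 FPKM in KIRA6 replicates 1 to 3. Every KIRA6 library lay below every vehicle library, and the KIRA6 mean was 47.1% of the vehicle mean. The log2 fold change was −1.04 ± 0.14 (SE, limma adjusted p = 0.00404), the largest decrease of the 48, and it was called in all 18 alternative fits (adjusted p = 3.52e-05 to 0.0290).

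Calls for the partners of Cdc6 depended on the fit or were not made. Orc1, the origin recognition subunit that cycles with G1, had 8.01 ± 1.71 FPKM in vehicle against 5.27 ± 0.928 FPKM with KIRA6 (SD, n = 3), with groups that did not overlap and a limma adjusted p of 0.0947. It was called lower with median-ratio scaling (limma adjusted p = 0.0444), with array weights (0.000494), with Vehicle replicate 3 left out (0.0363) and with the pair left out (0.00298). Orc6 had 34.0 ± 11.0 FPKM in vehicle against 25.4 ± 6.01 FPKM with KIRA6 (limma adjusted p = 0.402), and was called lower with array weights (0.00183) and with the pair left out (0.000825). Cdt1, which brings the helicase to CDC6, was at 18.6, 20.5 and 37.5 FPKM in vehicle against 13.1, 21.6 and 21.6 FPKM with KIRA6. Its highest value was in Vehicle replicate 3 and its lowest in KIRA6 replicate 1, the libraries that lay apart, and its log2 fold change of −0.40 (limma adjusted p = 0.413) became 0.14 without them. Geminin (Gmnn), the inhibitor of CDT1, had the highest fold change of this role, with 41.9, 39.4 and 23.9 FPKM in vehicle against 48.6, 35.9 and 34.9 FPKM with KIRA6. The groups overlapped, and the log2 fold change of 0.21 (limma adjusted p = 0.605) turned to −0.20 without the same libraries.

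The 6 subunits of the MCM2-7 ring, present in equal numbers in the protein complex, had vehicle means from 39.1 FPKM (Mcm2) to 145 FPKM (Mcm5). Mcm3 (ENSMUSG00000041859, chromosome 1, 20873192 to 20890536 on GRCm39) was the subunit that fell. It had 124, 128 and 95.1 FPKM in the vehicle libraries and 70.7, 54.6 and 59.5 FPKM in the KIRA6 libraries, a log2 fold change of −0.90 ± 0.18 (SE, limma adjusted p = 0.0133). The lowest vehicle library, replicate 3, still lay above the highest KIRA6 library, replicate 1. Its call ended when Vehicle replicate 1 (0.0539) or 2 (0.0654), or KIRA6 replicate 2 (0.0685) or 3 (0.0530), was left out, with the limma adjusted p in brackets.

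Mcm2 had 40.1, 40.8 and 36.3 FPKM in vehicle against 33.8, 29.8 and 29.9 FPKM with KIRA6, without overlap. Its log2 fold change was −0.32 (limma adjusted p = 0.113). It was called lower with median-ratio scaling (limma adjusted p = 0.0369), with array weights (0.00153) and with the pair left out (0.00754). Mcm5 had 152, 160.5 and 122 FPKM in vehicle against 136, 105 and 107 FPKM with KIRA6, and Mcm6 137, 141 and 102 FPKM in vehicle against 124, 103 and 108 FPKM with KIRA6. For both genes Vehicle replicate 3 was the lowest vehicle library and KIRA6 replicate 1 the highest KIRA6 library, and the groups overlapped. Mcm4 had the opposite order, with 41.7, 42.6 and 76.3 FPKM in vehicle, highest in replicate 3, and 33.6, 47.0 and 61.0 FPKM with KIRA6. Mcm7 varied little, with 61.6, 67.8 and 66.0 FPKM in vehicle against 63.4, 62.4 and 66.3 FPKM with KIRA6. The log2 fold change of Mcm7 was −0.02 with a 95% interval of −0.31 to 0.26, which does not overlap that of Mcm3 (−1.32 to −0.48). The intervals of Mcm2 (−0.62 to −0.02), Mcm4 (−0.90 to 0.58), Mcm5 (−0.74 to 0.09) and Mcm6 (−0.59 to 0.24) overlap that of Mcm3. A test of the difference between subunits was not run. All 6 fold changes were below 0, although that of Mcm4 lay above 0 when Vehicle replicate 3 (0.12), KIRA6 replicate 1 (0.06) or both (0.34) were left out. That of Mcm7 did so with quantile normalization (0.09) and with Vehicle replicate 2 left out (0.01).

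**Figure D2:**
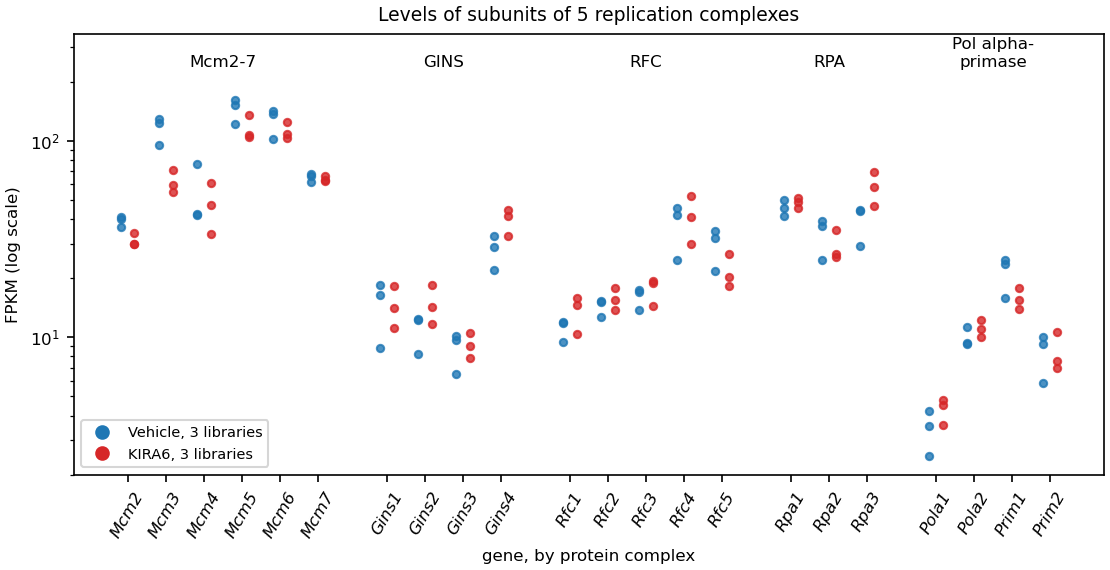
FPKM (log axis) of the subunits of 5 replication complexes in each of the 3 Vehicle (blue) and 3 KIRA6 (red) libraries. Mcm3 is the single gene shown that was called, with KIRA6 points at 54.6 to 70.7 FPKM and Vehicle points at 95.1 to 128 FPKM.

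Promoter sequence from RefSeq (GRCm38.p6, 250 bases before to 50 after each start) was searched for the E2F words TTTCCCGC, TTTCGCGC, TTTGCCGC and TTTGGCGC on both strands. The table held a promoter for 38 of the 48 genes, and 14 of these (36.8%) had a word, against 5.16% of 8513 tested genes and 2.26% of all 32851 promoters in the table. By role these were 7 of 9 licensing genes, 1 of 5 helicase activation genes, 4 of 14 fork genes, 0 of 4 nucleotide supply genes, 1 of 4 chromatin genes and 1 of the 2 E2F genes. By rule, promoters with a word are shown for a fixed list (E2f1, Cdc6, Mcm5, Pcna, Rrm2 and Tk1) and then for called members. This gave Cdc6 and Mcm3, which fell, and Mcm5, which was not called. Words were also found for Mcm6 and Mcm7, other ring subunits that were not called. Capitals mark the matches, which are 2 overlapping words in Mcm5, 2 separate words in Mcm3 and 1 in Cdc6.
Cdc6 (chr11:98907901-98908200, plus strand): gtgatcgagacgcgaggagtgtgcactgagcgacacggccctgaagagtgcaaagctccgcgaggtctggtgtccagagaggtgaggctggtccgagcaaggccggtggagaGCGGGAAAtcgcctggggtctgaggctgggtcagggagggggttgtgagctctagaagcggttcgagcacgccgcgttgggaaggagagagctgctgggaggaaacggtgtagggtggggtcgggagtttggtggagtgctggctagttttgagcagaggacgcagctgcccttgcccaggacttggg
Mcm5 (chr8:75109259-75109558, plus strand): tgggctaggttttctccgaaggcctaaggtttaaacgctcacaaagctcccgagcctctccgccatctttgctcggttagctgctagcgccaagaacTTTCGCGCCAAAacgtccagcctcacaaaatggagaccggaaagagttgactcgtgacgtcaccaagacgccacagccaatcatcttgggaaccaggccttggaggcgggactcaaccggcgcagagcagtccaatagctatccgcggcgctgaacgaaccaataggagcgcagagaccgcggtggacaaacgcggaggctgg
Mcm3 (chr1:20820263-20820562, minus strand): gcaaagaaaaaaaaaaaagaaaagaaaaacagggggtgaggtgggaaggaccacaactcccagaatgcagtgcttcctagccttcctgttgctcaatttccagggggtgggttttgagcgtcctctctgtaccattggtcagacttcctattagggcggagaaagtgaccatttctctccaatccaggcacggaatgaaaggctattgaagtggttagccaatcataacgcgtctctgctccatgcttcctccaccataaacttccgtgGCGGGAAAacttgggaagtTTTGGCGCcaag
The Cdc6 match starts 138 bases before the annotated start and those of Mcm5 start 153 and 149 bases before it. Those of Mcm3 start at base 20 and base 39 after it. Of the 14 members with a word 2 fell, and of the 24 without 3 fell, and the median log2 fold changes were −0.10 and −0.31. No word was found in the windows of Mcm10, Rrm2 and Tk1.

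Of the 8 helicase activation genes 1 fell and 0 rose, beside 7.98% and 15.6% of all tested genes. The median log2 fold change of the 8 was 0.04. An unadjusted p under 0.05 was found for 2 of them in the lower direction and 1 in the higher. With the pair left out 4 were called lower (Mcm10, Cdc45, Cdc7 and Gins1) and 0 higher, beside 20.2% and 35.9% of all genes. Mcm10 (ENSMUSG00000026669, chromosome 2, 4994525 to 5017602 on GRCm39), which is needed for the loaded helicase to start unwinding, had 16.7, 17.4 and 14 FPKM in vehicle against 11.2, 8.42 and 9.16 FPKM with KIRA6. The groups did not overlap, and the log2 fold change was −0.72 ± 0.16 (SE, limma adjusted p = 0.0217). The call ended when Vehicle replicate 1 (0.0769) or 2 (0.0996), or KIRA6 replicate 2 (0.0968) or 3 (0.0759), was left out, with the limma adjusted p in brackets.

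The DBF4-dependent kinase phosphorylates the ring to start firing. Its catalytic subunit Cdc7 had 4.37 ± 0.475 FPKM in vehicle against 3.10 ± 0.226 FPKM with KIRA6 (SD, n = 3, limma adjusted p = 0.0754), without overlap. Cdc7 was called lower with median-ratio scaling (limma adjusted p = 0.0262), quantile normalization (0.0408) and array weights (0.00101). The call was also made with Vehicle replicate 3 (0.0467) or the pair (0.0184) left out. The activator Dbf4 had 9.75 ± 0.338 FPKM in vehicle against 10.2 ± 1.35 FPKM with KIRA6. Cdc45, which rides with the helicase, had 24.9 ± 2.18 FPKM in vehicle against 20.6 ± 2.01 FPKM with KIRA6 (limma adjusted p = 0.207). None of the 4 GINS subunits was called, and their fold changes lay above 0, from 0.03 (Gins1) to 0.50 (Gins4). With median-ratio scaling those of Gins1 (−0.15) and Gins3 (−0.12) lay below 0, as did Gins3 with quantile normalization (−0.04) and Gins1 after rescaling to TPM (−0.01). Leaving out Vehicle replicate 3 (−0.28 and −0.12) or KIRA6 replicate 1 (−0.14 and −0.04), or using array weights (−0.25 and −0.27), also put Gins1 and Gins3 below 0. With the pair of libraries that lay apart left out, Gins1 was called lower (−0.45, limma adjusted p = 0.0269). Gins4 had 32.8, 28.9 and 22.0 FPKM in vehicle against 44.4, 41.4 and 32.9 FPKM with KIRA6. The lowest KIRA6 library lay just above the highest vehicle library, and the limma adjusted p was 0.112. Gins1, Gins2 and Gins3 had vehicle means of 14.6, 11.0 and 8.80 FPKM and KIRA6 means of 14.5, 14.8 and 9.12 FPKM, with groups that overlapped.

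None of the 19 fork genes was called in the reported limma fit of the 6 libraries or by limma-voom. In the reported fit 0 had an unadjusted p under 0.05 in the lower direction and 2 (Rpa3 and Lig1) in the higher. Array weights called 6 lower and 6 higher, beside 23.9% and 40.3% of all genes. A block on replicate number called Prim1 lower and Rpa3 higher, beside 13.1% and 24.5% of all genes. In the reported fit the fold changes of the 19 ran from −0.44 (Fen1) to 0.57 (Rpa3). Their median was 0.12, close to the 0.16 of all tested genes. With Vehicle replicate 3 left out 3 were called lower (Rfc5, Prim1 and Fen1) and 0 higher, beside 11.3% and 17.5% of all genes. With the pair left out 6 were called lower (those 3 with Pcna, Rpa2 and Prim2) and 4 higher (Rfc1, Pold1, Pole and Lig1). That fit called 20.2% of all genes lower and 35.9% higher. Pcna, the sliding clamp and the most abundant of the 48 transcripts in vehicle, had 187, 179 and 126 FPKM in vehicle against 148, 136 and 119 FPKM with KIRA6. Vehicle replicate 3 lay within the KIRA6 range, and the log2 fold change was −0.28 (95% interval −0.74 to 0.19, limma adjusted p = 0.350). A pseudogene of the clamp, Pcna-ps2, was listed at a mean of 2.30 FPKM, so reads may have been shared between them.

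Fen1, the nuclease that trims Okazaki fragments, had 11.1, 12.1 and 8.60 FPKM in vehicle against 9.23, 6.75 and 7.03 FPKM with KIRA6 (limma adjusted p = 0.141). Only KIRA6 replicate 1 reached into the vehicle range. Rpa3, the small subunit of the single-strand binding protein, had 44.5, 44.0 and 29.0 FPKM in vehicle against 69.6, 57.9 and 46.5 FPKM with KIRA6 (limma adjusted p = 0.123). Its KIRA6 libraries lay above its vehicle libraries, and the spread was wide in both groups. The other subunits were not called, with 45.7 ± 4.39 FPKM in vehicle against 48.3 ± 2.76 FPKM with KIRA6 for Rpa1 and 33.5 ± 7.71 FPKM in vehicle against 29.2 ± 5.25 FPKM with KIRA6 for Rpa2. Lig1, the ligase that joins the fragments, had 36.0 ± 1.67 FPKM in vehicle against 45.5 ± 2.74 FPKM with KIRA6 (limma adjusted p = 0.0939), again without overlap.

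The clamp loader subunits Rfc1 to Rfc5 had vehicle means of 11.1 to 37.3 FPKM, and none was called. Rfc5 had the lowest fold change of them (−0.42, 29.5 ± 6.78 FPKM in vehicle against 21.8 ± 4.28 FPKM with KIRA6) and Rfc1, the large subunit, the highest (0.28, 11.1 ± 1.4 FPKM in vehicle against 13.6 ± 2.85 FPKM with KIRA6). Dscc1, part of the alternative loader that acts in sister chromatid cohesion, was the least abundant of the 48 in vehicle, with 2.25 ± 0.590 FPKM in vehicle against 2.38 ± 0.438 FPKM with KIRA6. Primase and polymerase alpha, which lay down primers, also split, from −0.41 for Prim1 (21.4 ± 4.80 FPKM in vehicle against 15.7 ± 2.0 FPKM with KIRA6) to 0.31 for Pola1 (3.42 ± 0.882 FPKM in vehicle against 4.29 ± 0.650 FPKM with KIRA6), and Pola2 and Prim2 lay between them. Tipin, of the fork protection complex, had 86.7 ± 21.5 FPKM in vehicle against 67.4 ± 13.0 FPKM with KIRA6. The catalytic subunits Pold1, for the lagging strand, and Pole, for the leading strand, varied most between replicates. Pold1 had 3.84, 5.95 and 16.9 FPKM in vehicle against 5.21, 15.6 and 16.2 FPKM with KIRA6, and Pole 4.53, 5.0 and 11.4 FPKM in vehicle against 4.87, 7.54 and 11.2 FPKM with KIRA6. In both genes Vehicle replicate 3 resembled KIRA6 replicate 3 and KIRA6 replicate 1 resembled the other vehicle libraries, and the 95% interval of Pold1 ran from −0.92 to 2.03 on the log2 scale.

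Of the 4 nucleotide supply genes 2 fell and 0 rose, beside 7.98% and 15.6% of all tested genes. The median log2 fold change of the 4 was −0.51, and the same 2 genes that fell had an unadjusted p under 0.05. With the pair left out all 4 were called lower, beside 20.2% of all genes. Ribonucleotide reductase makes deoxyribonucleotides, and its small subunit Rrm2 is made and destroyed with the cell cycle. Rrm2 (ENSMUSG00000020649, chromosome 12, 24758240 to 24764145 on GRCm39) had 129, 138 and 155 FPKM in vehicle against 74.6, 76.1 and 88.5 FPKM with KIRA6. The groups stood well apart, and the KIRA6 mean was 56.6% of the vehicle mean. The log2 fold change was −0.82 ± 0.14 (SE, limma adjusted p = 0.00907), and the call ended in 1 of 18 alternatives, with KIRA6 replicate 2 left out (limma adjusted p = 0.0534). The large subunit Rrm1, whose level varies less over the cycle, had 54.3, 56.9 and 44.7 FPKM in vehicle against 48, 39.9 and 44.2 FPKM with KIRA6 (log2 fold change −0.23, 95% interval −0.59 to 0.13, limma adjusted p = 0.309).

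Tk1 (ENSMUSG00000025574, chromosome 11, 117706352 to 117716918 on GRCm39), which salvages thymidine, had 35, 35.1 and 28.6 FPKM in vehicle against 24.1, 20.1 and 19.3 FPKM with KIRA6, without overlap. Its log2 fold change was −0.63 ± 0.15 (SE, limma adjusted p = 0.0279). The call ended with no filter on low values (limma adjusted p = 0.0522) and when Vehicle replicate 1 (0.0982) or 2 (0.119), or KIRA6 replicate 2 (0.115) or 3 (0.0908), was left out. Thymidylate synthase (Tyms), the de novo source of the same nucleotide, had 21.5, 21.2 and 12.7 FPKM in vehicle against 17.9, 12.5 and 11.3 FPKM with KIRA6. Vehicle replicate 3 and KIRA6 replicate 1 crossed over, and Tyms was not called (log2 fold change −0.39, 95% interval −1.02 to 0.24, limma adjusted p = 0.332).

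**Figure D3:**
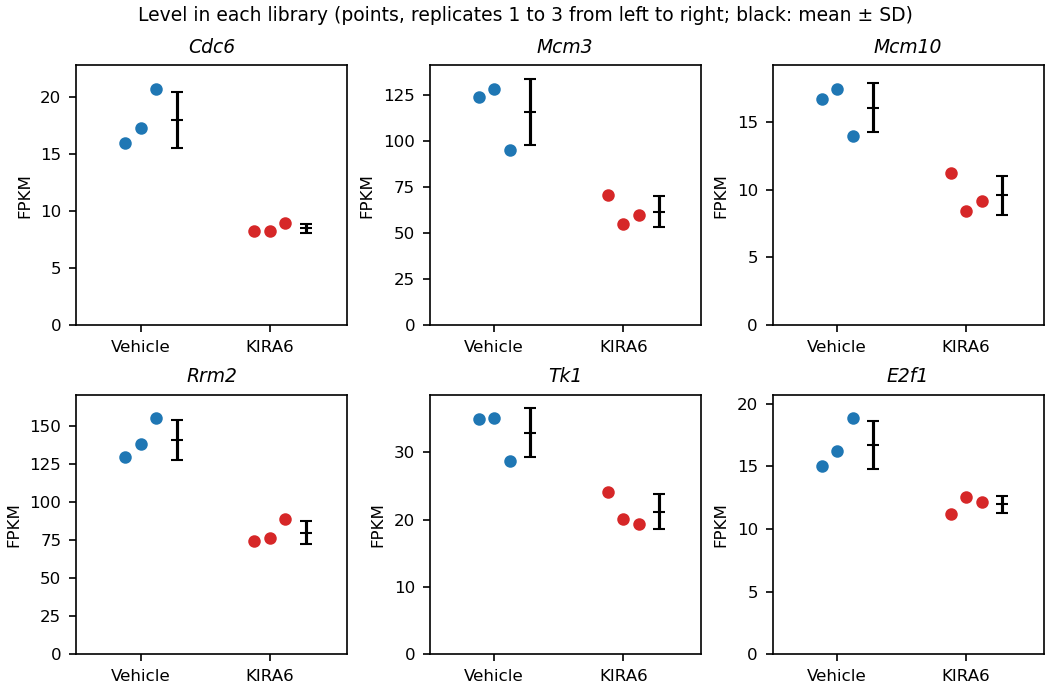
FPKM (y axis, from 0) of the 5 called genes and of E2f1 in each library, with the mean ± SD of the 3 libraries of a group in black. In all 6 panels the highest KIRA6 point lies below the lowest Vehicle point.

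The 4 genes of chromatin and histone supply had fold changes within a narrow range, from −0.37 to −0.26, with a median of −0.33. None was called in the reported limma fit of the 6 libraries or by limma-voom. Array weights called all 4 lower, beside 23.9% of all genes. A block on replicate number called Uhrf1 lower, beside 13.1% of all genes. With median-ratio scaling 2 were called lower, Uhrf1 (limma adjusted p = 0.0374) and Chaf1a (0.0304), and with the pair left out 3, Slbp, Chaf1a and Chaf1b. Of all genes 12.2% were called lower with median-ratio scaling and 20.2% with the pair left out. In the lower direction 2 had an unadjusted p under 0.05, and in the higher 0. Chaf1a and Chaf1b, subunits of the assembly factor that places histones behind the fork, had 18.2, 19.9 and 17.6 and 23.9, 24.2 and 22.4 FPKM in vehicle against 15.7, 13.1 and 14.2 and 20.9, 19.4 and 16.7 FPKM with KIRA6. Neither gene had overlapping groups, and the limma adjusted p was 0.0888 and 0.15. Uhrf1, which brings the maintenance DNA methyltransferase to new strands, had 60.8 ± 6.42 FPKM in vehicle against 47.3 ± 4.62 FPKM with KIRA6 (limma adjusted p = 0.123). Slbp, which binds the end of replication-dependent histone mRNAs, had 24.8, 24.6 and 18.1 FPKM in vehicle against 20.2, 16.4 and 19.2 FPKM with KIRA6 (limma adjusted p = 0.323), with Vehicle replicate 3 inside the KIRA6 range.

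E2f1, an activator of this gene set and itself an E2F target, had 15.0, 16.2 and 18.8 FPKM in vehicle against 11.2, 12.5 and 12.2 FPKM with KIRA6. The groups did not overlap, and the log2 fold change of −0.46 ± 0.14 (SE) missed the threshold (limma adjusted p = 0.0539). It passed with median-ratio scaling (0.0203) and quantile normalization (0.0463) and with the pair left out (0.0426), and the range over 18 alternatives was 0.00539 to 0.159. E2f2 was lower in level, at 2.22, 2.53 and 2.89 FPKM in vehicle against 2.63, 2.98 and 2.75 FPKM with KIRA6. Its groups overlapped, and its log2 fold change of 0.11 (limma adjusted p = 0.633) turned to −0.05 with median-ratio scaling and −0.20 with quantile normalization.

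Much of the variation among the members lay between replicates. Vehicle replicate 3 had the lowest of the 3 vehicle values for 34 of the 48 genes and the highest for 13, while KIRA6 replicate 1 had the highest of its group for 31. The median member, set against the vehicle mean on the log2 scale, was at 0.08, 0.12 and −0.20 in the vehicle libraries and −0.11, −0.23 and −0.22 in the KIRA6 libraries. Vehicle replicate 3 therefore lay nearer to the KIRA6 libraries than to the other vehicle libraries in this measure. The SD of log2 values over the 3 vehicle libraries ran from 0.05 (Dbf4) to 1.03 (Pold1). The 48 genes took 0.653% to 0.741% of the fragments in vehicle and 0.565% to 0.622% with KIRA6, and these ranges did not overlap. For 11 members an expressed gene on the opposite strand overlaps the locus. Tk1 is the called gene among them, and its neighbour Afmid had a mean of 0.56 FPKM and overlaps it by 169 bases. The most abundant neighbours were Eif4a2 (53.85 FPKM, at Rfc4), Cops6 (47.14, at Mcm7), Tmem258 (35.88, at Fen1) and Vps35 (34.91, at Orc6). Overlap was measured between whole gene spans, so the exons need not overlap. The strand setting of the counting is not given in the sources used here. Reads from a shared stretch may therefore have been added to, or left out of, the levels of these 11 members.

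**Figure D4:**
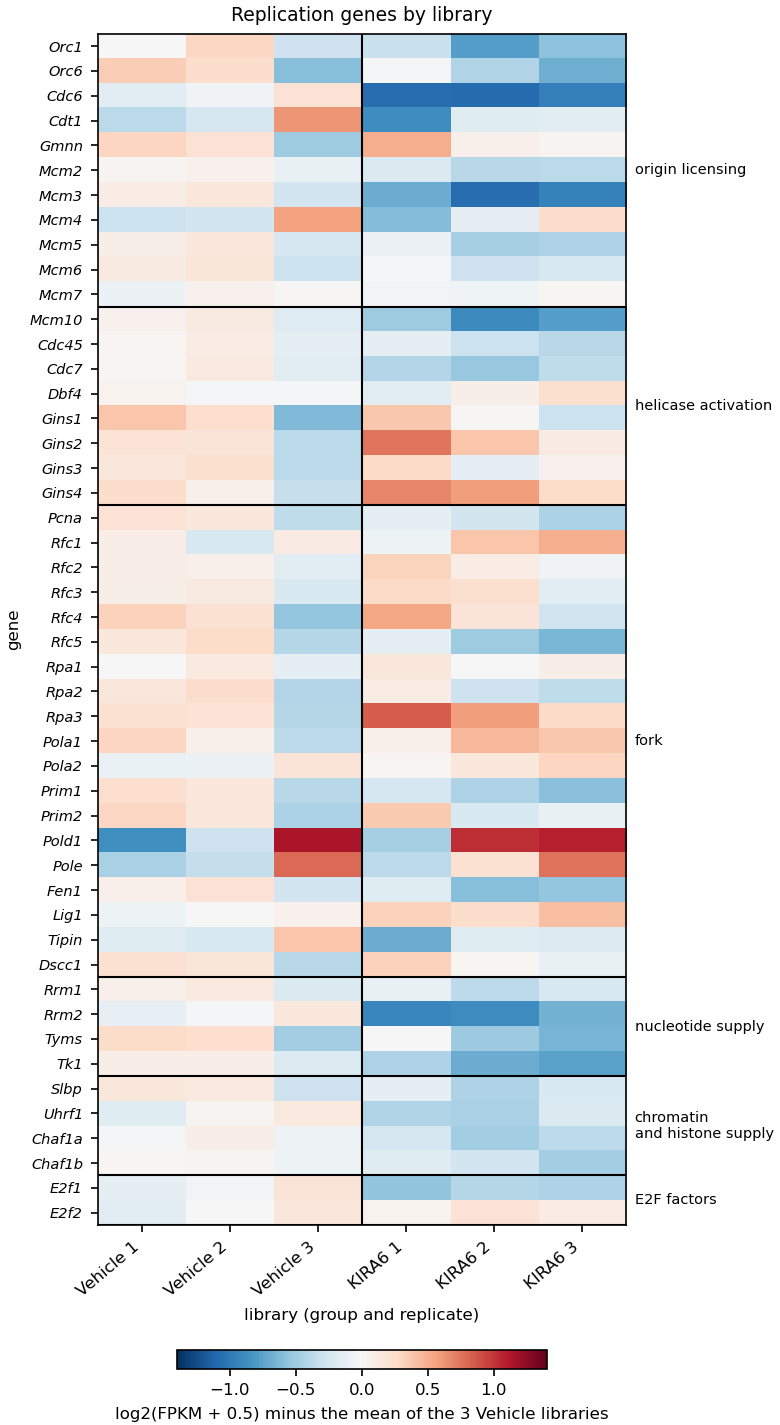
Each of the 48 genes (rows, grouped by role) in each of the 6 libraries (columns), as log2(FPKM + 0.5) minus the mean of the 3 Vehicle libraries. Cdc6, Mcm3 and Rrm2 are blue in all 3 KIRA6 libraries, while Pold1 and Pole are red in Vehicle replicate 3 and in KIRA6 replicates 2 and 3.

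The genes around the members were read from 6 lists of 153 further genes. Of 36 other licensing and replisome genes 3 fell and 0 rose (4 and 2 at an unadjusted p under 0.05, and 3 and 0 with limma-voom). Their median log2 fold change was −0.11. Their share called lower, 8.33%, was near the 7.98% of all tested genes, of which 15.6% were called higher. The 3 were Orc2 (from 22.2 ± 7.21 to 10.7 ± 0.965 FPKM), the DNA polymerase delta subunit Pold2 (from 69.7 ± 1.75 to 45.6 ± 5.30 FPKM) and the helicase-nuclease Dna2 (from 3.17 ± 0.449 to 1.6 ± 0.143 FPKM). None of the 3 stayed called when Vehicle replicate 1 or 2, or KIRA6 replicate 2 or 3, was left out. Leaving out Vehicle replicate 3 or KIRA6 replicate 1 gave 5 and 2 genes called lower, beside 11.3% and 6.52% of all genes. Of 12 other nucleotide supply genes 3 fell and 0 rose (3 and 1 at an unadjusted p under 0.05, and 3 and 0 with limma-voom). Shmt1, which supplies one-carbon units for thymidylate, fell from 20.0 ± 2.29 to 5.14 ± 0.367 FPKM (limma adjusted p = 0.000745). Dctpp1, which clears deoxycytidine triphosphate, and the kinase Nme1 fell with log2 fold changes of −0.74 and −0.82. Only Shmt1 was called with no filter and when Vehicle replicate 1 or 2, or KIRA6 replicate 2 or 3, was left out.

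Regulators upstream of E2F changed in both directions. Among the 18 tested of 22 G1/S cyclins, kinases and inhibitors 6 fell and 4 rose, with a median of −0.23. Of all tested genes 7.98% fell and 15.6% rose. The cyclin gene Ccnd1, whose product activates the kinases CDK4 and CDK6 that phosphorylate RB, was at 463, 463 and 481 FPKM in vehicle against 35.7, 30.6 and 33.9 FPKM with KIRA6 (limma adjusted p = 7.87e-05). Cyclin E1 (Ccne1), the partner of CDK2 at the G1/S boundary, fell from 13.3 ± 1.26 to 5.07 ± 0.512 FPKM (limma adjusted p = 0.00194), as did Ccnd2 (from 21.5 ± 1.25 to 11.2 ± 1.31 FPKM) and the phosphatase Cdc25a (from 15.0 ± 0.804 to 7.59 ± 1.04 FPKM). Ccne2 was not called, with 7.23 ± 2.15 FPKM in vehicle against 6.09 ± 0.328 FPKM with KIRA6, nor was the S-phase cyclin Ccna2, with 92.7 ± 6.99 FPKM in vehicle against 101 ± 4.19 FPKM with KIRA6. The CDK inhibitor Cdkn1b rose from 16.8 ± 0.994 to 48.9 ± 5.44 FPKM (limma adjusted p = 0.00122) and Cdkn1a from 1.64 ± 0.0889 to 3.23 ± 0.204 FPKM (limma adjusted p = 0.00819), and the call for Cdkn1a ended with quantile normalization (0.0825) and with KIRA6 replicate 2 left out (0.0506). The list had 4 lower and 1 higher in that last fit, beside 3.35% and 6.94% of all genes. It had 4 and 3 with Vehicle replicate 1 or 2 left out. The shares of all genes were 4.42% lower and 9.35% higher without Vehicle replicate 1, and 3.45% and 7.32% without Vehicle replicate 2. With the pair that lay apart left out the list had 9 and 4, beside 20.2% and 35.9% of all genes.

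Of 17 genes for other E2F factors, RB-family proteins and the DREAM complex, which silences cell cycle genes in resting cells, 2 fell and 3 rose. These were 11.8% and 17.6% of the list, beside 7.98% and 15.6% of all tested genes, and the median was −0.06. The RB-family repressor Rbl2 rose from 1.97 ± 0.208 to 6.92 ± 1.37 FPKM (limma adjusted p = 0.00216) and the DREAM subunit Lin37 from 5.37 ± 0.668 to 13.7 ± 1.95 FPKM (limma adjusted p = 0.00339). The E2F partner Tfdp2 rose from 1.37 ± 0.278 to 2.91 ± 0.342 FPKM, a call that ended with quantile normalization (0.110) and with KIRA6 replicate 2 (0.0532) or 3 (0.0559) left out. Mybl2, which takes part in switching on late cell cycle genes, fell from 31.3 ± 3.29 to 16.4 ± 0.790 FPKM (limma adjusted p = 0.00490), and E2f4, the E2F of the repressor complexes, fell from 48.2 ± 11.1 to 24.6 ± 3.45 FPKM, a call that ended with KIRA6 replicate 2 (0.0581) or 3 (0.0559) left out. Rb1 was at 0.937 ± 0.467 FPKM in vehicle against 2.0 ± 0.735 FPKM with KIRA6 (limma adjusted p = 0.103).

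For comparison with a later phase of the cycle, mitosis genes were read in the same way. Of 35 tested, 12 rose and 0 fell (16 and 0 at an unadjusted p under 0.05, and 13 and 0 with limma-voom), beside 15.6% of all genes higher, and the median was 0.55. Among them the cyclin Ccnb2 rose from 63.2 ± 4.74 to 139.5 ± 15.0 FPKM, the kinetochore gene Ndc80 from 2.30 ± 0.345 to 8.61 ± 1.16 FPKM and the spindle kinesin Kif11 from 9.97 ± 2.17 to 22.9 ± 3.06 FPKM (limma adjusted p = 0.00295, 0.00151 and 0.00819). Prc1 and Nek2 rose with log2 fold changes of 0.81 and 0.74. Top2a had 83.0, 76.6 and 59.1 FPKM in vehicle against 101, 93.8 and 116 FPKM with KIRA6 (limma adjusted p = 0.0765). Mki67 had 4.85, 4.75 and 23.6 FPKM in vehicle against 6.88, 32.8 and 37.6 FPKM with KIRA6, with Vehicle replicate 3 high and KIRA6 replicate 1 low within their groups. The number of mitosis genes called higher was 6 with median-ratio scaling, 8 after rescaling to TPM, 6 with Vehicle replicate 1 left out, 5 with Vehicle replicate 2, KIRA6 replicate 2 or KIRA6 replicate 3 left out, and 24 (with 1 lower) with the pair that lay apart left out. Of all genes, the share called higher was 11.0% with median-ratio scaling, 13.4% after rescaling to TPM and 9.35% with Vehicle replicate 1 left out. It was 6.94% to 8.81% in the other 3 single omissions named, and 35.9% with the pair left out. A test of the difference between the lists was not run.

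**Figure D5:**
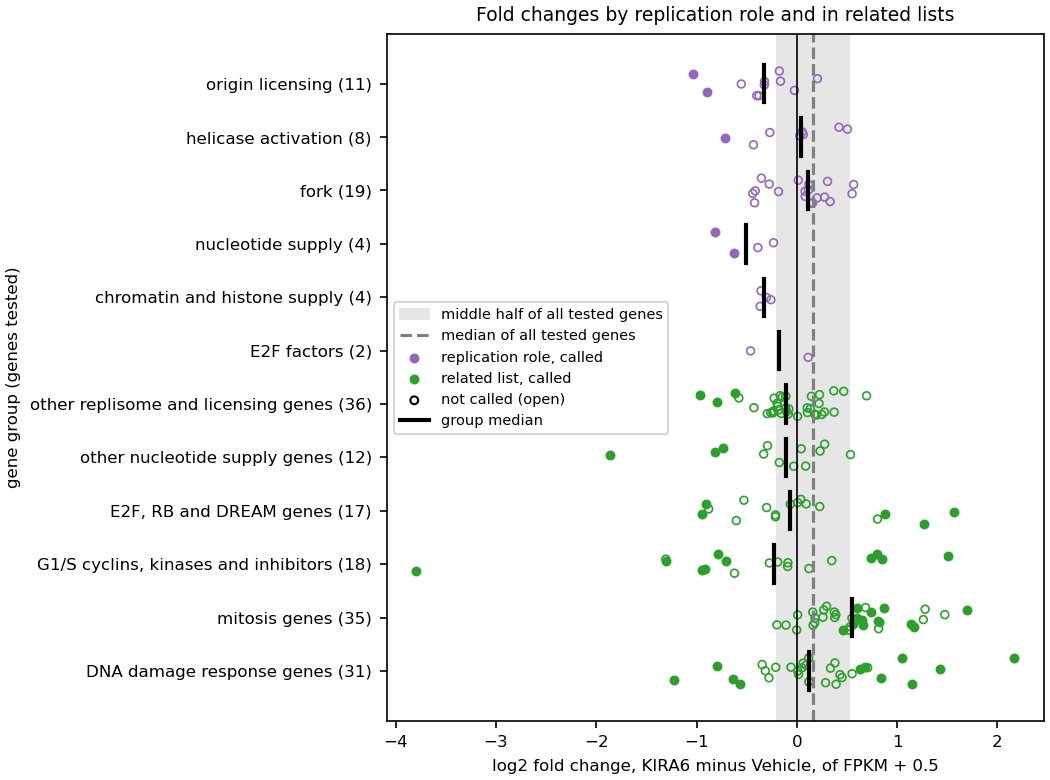
Log2 fold changes (x axis, log2 of FPKM + 0.5, KIRA6 minus Vehicle) of the members by role (purple) and of 6 related lists (green), with filled points for called genes, black bars for group medians and a grey band for the interquartile range of all tested genes. The medians run from −0.51 for nucleotide supply to 0.55 for mitosis genes, and the dashed line marks the median of all tested genes, 0.16.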

How the data were processed

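The submitters' processing notes list the build GRCm39 and, with no settings, the tools HTSeq 0.6.1, cutadapt 1.9.1, DESeq2 1.34.0 and HISAT2 2.2.1. The authors deposited FPKM with 2 decimals for each gene and library, per the file headers beside exonic length and GRCm39 coordinates. The fragments per library were recovered from the steps between low values of short genes: all of 722 to 898 checked values per library were within 0.1 fragment of a whole number. The detection floor was a count of 3 fragments, for counting error alone.

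The model, run in limma 3.58.1 under R 4.3.3, took log2(FPKM + 0.5) with treatment as the only term, with an intensity trend and robust empirical Bayes. It covered the 11778 genes whose mean reached 0.5 FPKM, and p-values were Benjamini-Hochberg adjusted over all of them. A fold change on this scale understates the change of low genes. The scripts were tested on simulated data. The simulation drew the noise of each gene independently, without the shared library deviations given above, so it cannot show how calls behave under them. With 3 libraries in each group the smallest exact permutation p is 0.1, and limma was used throughout. Nothing in the labels says that the libraries are separate cultures, and the p-values may reflect technical spread only. The members, lists and alternatives were chosen with earlier results of these data known. By rule, values in every library are given for called members, the extremes of each role and 16 listed members, and from other lists up to 5 called genes of smallest p and 9 listed genes are named. The alternatives were other pseudocounts, filters, scalings and weights, the replicate block, limma-voom on the estimated fragments, and leaving out libraries. The RefSeq promoter table (GRCm38.p6) was matched by symbol.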

Additional observations from a re-analysis of the deposited data

How the results depend on the processing

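Of the 5 genes called lower, all kept a negative fold change in each of 18 alternatives: Cdc6 was called in 18, Rrm2 in 17, Mcm3 and Mcm10 in 14 each and Tk1 in 13. Members called lower numbered 11 with median-ratio scaling, 25 with array weights, 8 with the replicate block, 25 in the joint omission of Vehicle replicate 3 and KIRA6 replicate 1, and 1 to 10 with single libraries left out. Members called higher numbered 7, 3 and 4 with array weights, the replicate block and the joint omission, and 0 in the others. Of all tested genes, array weights called 23.9% lower and 40.3% higher, the replicate block 13.1% and 24.5%, and the joint omission 20.2% and 35.9%. The median member moved from −0.21 to −0.39 with median-ratio scaling. Array weights, estimated gene by gene because the default estimate stopped before it converged, ran from 0.168 (Vehicle replicate 3) to 5.45 (Vehicle replicate 2), so that fit rests on few libraries. Genes of the 6 other lists called lower numbered 18 as reported, 43 with array weights, 40 in the joint omission and 7 to 22 with single libraries left out; called higher they numbered 26, and 17 with median-ratio scaling, 57, 52 and 12 to 27. The sign of the fold change held in all 18 alternatives for 31 members and turned in at least 1 for 17: Cdt1, Gmnn, Mcm4, Mcm7, Dbf4, Gins1, Gins3, Rfc2, Rfc3, Rfc4, Rpa1, Pola2, Prim2, Pole, Tipin, Dscc1 and E2f2. For the genes named by rule the turned values were those of Cdt1 (0.0288 with array weights, 0.1448 in the joint omission), Gmnn (−0.1051 and −0.1957 in those fits, −0.0446 to 0.3542 over single libraries left out), Mcm4 (0.146 and 0.3414, and −0.3665 to 0.1205), Mcm7 (0.0906 with quantile normalization, and −0.0628 to 0.00535), E2f2 (−0.0459 and −0.1969 with median-ratio scaling and quantile normalization) and, outside the members, Ccna2 (−0.0675 with median-ratio scaling). The cause was not tested. Deviations of same-numbered libraries correlated at 0.762, −0.469 and 0.738, and Vehicle replicate 2 correlated best with KIRA6 replicate 1 (0.713). Deviations taken from a group mean are not independent, so these correlations cannot settle whether the numbers pair the libraries. The replicate block called 4423 of all tested genes, against 2783 in the reported fit. Under it Prim1, Uhrf1 and E2f1 were also called lower and Gins2, Gins4 and Rpa3 higher. At 3 libraries a group, smaller changes among the uncalled members could have been missed.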

Other observations

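The DNA damage response and repair genes of the related lists split in direction. Of 31 tested, 7 rose and 4 fell, beside 15.6% and 7.98% of all tested genes, with a median log2 fold change of 0.12. Gadd45a, a growth-arrest gene, rose from 3.58 ± 0.936 to 17.6 ± 2.66 FPKM (limma adjusted p = 0.00148), Sesn1, a stress-inducible regulator of mTORC1, from 1.75 ± 0.462 to 5.48 ± 0.751 FPKM (limma adjusted p = 0.00480) and the checkpoint kinase Chek2 from 4.53 ± 0.0802 to 10.6 ± 0.757 FPKM (limma adjusted p = 0.00202). In the other direction the uracil glycosylase Ung, which removes uracil from new DNA, fell from 4.87 ± 0.355 to 1.80 ± 0.208 FPKM (limma adjusted p = 0.00251) and the exonuclease Exo1 from 6.46 ± 0.522 to 3.5 ± 0.236 FPKM (limma adjusted p = 0.00863). The call for Exo1 ended with KIRA6 replicate 2 left out (limma adjusted p = 0.0510). The list had 2 genes lower with Vehicle replicate 1 or 2 or KIRA6 replicate 1 left out, and 1 with KIRA6 replicate 2 left out. Of all tested genes 4.42%, 3.45%, 6.52% and 3.35% were called lower in these fits, in that order. Genes called higher numbered 4 with quantile normalization or with KIRA6 replicate 2 or 3 left out. The shares of all tested genes called higher there were 9.61%, 6.94% and 8.81%. Genes of the list called higher numbered 13 (with 7 lower) with Vehicle replicate 3 and KIRA6 replicate 1 both left out. That last fit called 35.9% of all tested genes higher and 20.2% lower.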
